A study of Mus musculus with 4 samples.

Results

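The leukocyte integrin chains are 10 genes chosen by name: the alpha chain genes Itgal, Itgam, Itgax, Itgad, Itgae, Itga4 and Itga6 and the beta chain genes Itgb1, Itgb2 and Itgb7. All 10 were measured among the 19938 genes that had a probe set of their own on the arrays. They were compared between conventional dendritic cells of the cDC2 type sorted from the spleens of Zbtb46-GFP chimeric mice, called wild type (WT) here as in the sample titles, and the same cells from Id2 KO Zbtb46-GFP chimeric mice. Both groups carry Zbtb46-GFP, a fluorescent reporter for a transcription factor of conventional dendritic cells. Each group held 2 arrays, 1 per sample. The age of the mice, the origin of the donor and host cells of the chimeras, any pooling of animals and the surface markers used for the sort were not given in the labels used here. Bone marrow appears as a source in the design text as well, while the labels of all 4 samples name the spleen.

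An integrin is a pair of one alpha and one beta chain in the cell membrane, and a chain reaches the surface only as part of a pair. Itgb2 (CD18) pairs with Itgal to form LFA-1, with Itgam (CD11b) to form Mac-1, with Itgax (CD11c) to form the receptor that marks dendritic cells, and with Itgad (CD11d). Itgb1 (CD29) pairs with many alpha chains, Itga4 and Itga6 among them, and binds matrix proteins and VCAM-1. Itgb7 pairs with Itga4, which gives the gut-homing receptor for MAdCAM-1, and with Itgae (CD103), which binds E-cadherin on epithelia. Surface CD11b is used together with SIRPα to tell cDC2 from the cDC1 type. Id2, the gene named in the knockout, encodes a helix-loop-helix protein that keeps E proteins from DNA.

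The median intensity per array lay between 128 and 134. Id2 had log2 intensities of 9.14 and 9.08 on the WT arrays, against 8.71 and 8.97 on those labelled Id2 KO. Its difference was -0.27 and missed the threshold (limma, adjusted p = 0.172). A single probe set measures Id2 and the deleted part of the gene was not given, so this checks the labels only weakly, and the group is called the knockout-labelled arrays. Of the cDC2-defining genes, 12 of 14 were above the intensity filter, and Mgl2 and Clec10a were below it. Xist, an X-linked RNA of female cells, read 11.96 on each WT array, against 6.67 and 6.68 on the knockout-labelled ones, so genotype cannot be told apart from sex-linked differences here. Whether the samples came from separate mice is not in the labels, and p-values here cover the spread of these samples alone, and it may be technical. Arrays of sorted bulk cells cannot tell fewer cells of a type from less RNA per cell.

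A gene was tested when its mean log2 intensity over the 4 arrays was above the 40th percentile of genes, which was 6.77. This kept 9 of the 10 chains and left out Itga6. Of the 9, Itgam fell, Itgb1 rose and 6 did not pass (limma, adjusted p below 0.05). Itgad also had an adjusted p below 0.05, as lower, but its mean of 6.69 in the knockout-labelled arrays was under the filter level. It was tested only through its WT mean of 7.07, so its call is given as a value and supports no count. Across all 11963 tested genes, 8.04% passed, 5.53% as higher and 2.52% as lower. The median log2 difference was -0.01 over the 9 chains and 0.01 over all tested genes. The groups did not overlap for 4 of the 9 chains, and for 50.7% of all tested genes. Levels are compared between arrays for 1 probe set at a time, since a probe set's brightness does not give the level of one gene against another.

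**Figure D1:**
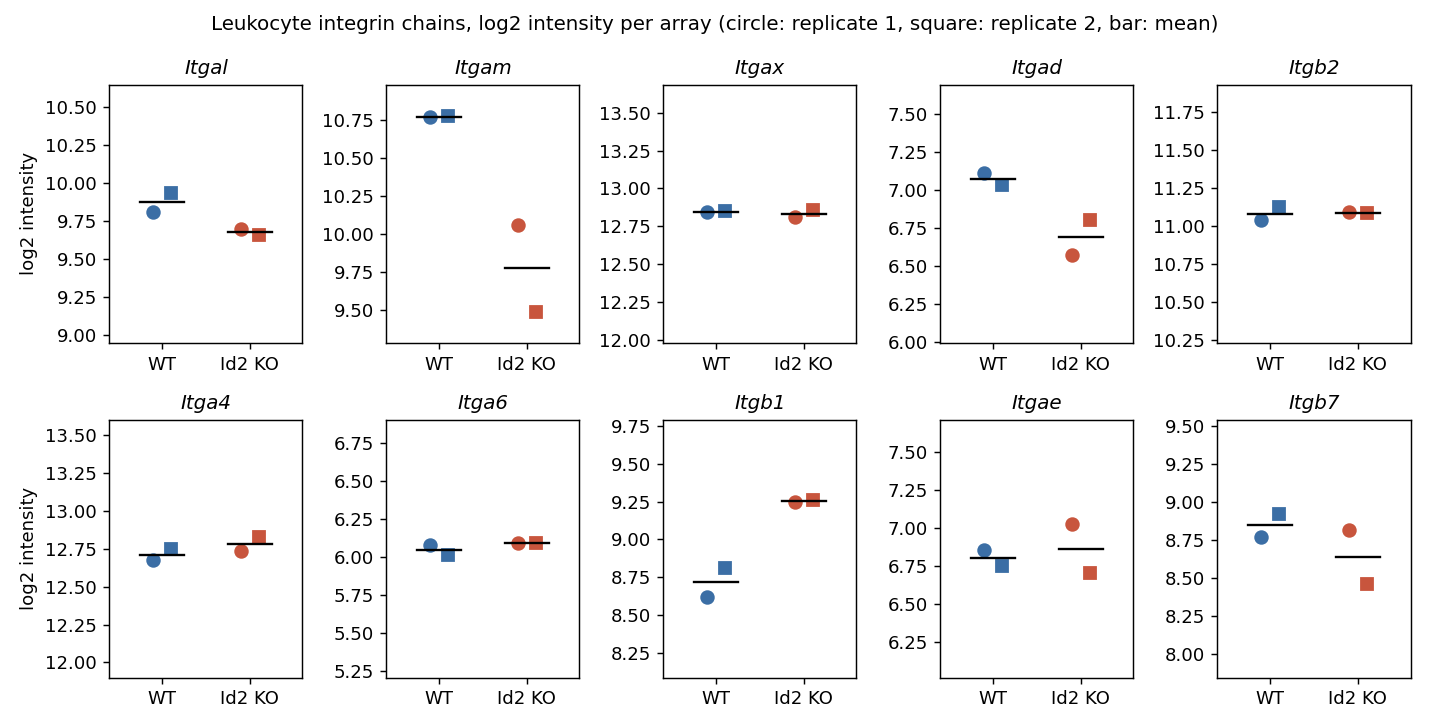
Log2 intensity (vertical axis) of the 10 chains in each array, with WT on the left and Id2 KO on the right of each panel; bars are group means, and all panels span the same number of log2 units. Itgam, Itgad and Itgal lay lower and Itgb1 higher in both knockout-labelled arrays than in both WT arrays, Itga6 differed by 0.04, and Itgax, Itgb2, Itga4, Itgae and Itgb7 overlapped between the groups.

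Among the beta 2 integrins, the alpha chain of Mac-1 fell, and Itgal, Itgax and the shared beta chain did not pass. Itgam had log2 intensities of 10.77 and 10.78 on the WT arrays against 10.06 and 9.49 on the knockout-labelled arrays. Both knockout-labelled arrays were lower than both WT arrays, and they differed from each other by more than the WT arrays did. The means were 10.77 ± 0.00 and 9.78 ± 0.41 (SD, n = 2 each), which is 2.00-fold lower. The difference was -0.998 on the log2 scale, with a 95% interval of -1.36 to -0.64 (limma, adjusted p = 0.00479). Without Id2 KO replicate 1 it was -1.29 and without Id2 KO replicate 2 it was -0.71, and it passed in both cases. A further 3 probe sets list Itgam together with the ribosomal protein gene Rpl35 and were left out for that reason, and each differed by 0.10 between the groups.

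Itgb2, the beta chain of all 4 receptors, had 11.04 and 11.12 on the WT arrays against 11.09 and 11.08 on the knockout-labelled arrays. Both values of the second group lay inside the range of the first. The difference was 0.01 with an interval of -0.17 to 0.19 (limma, adjusted p = 0.970), so a change of the size seen in Itgam lies outside this interval. Itgax, the chain by which dendritic cells are commonly recognised, had 12.84 and 12.85 on the WT arrays against 12.81 and 12.86 on the knockout-labelled arrays. These groups overlapped too, and the difference was -0.01 with an interval of -0.19 to 0.17 (limma, adjusted p = 0.953). CD11b and CD11c are common markers for sorting cDC2, and since the markers of this sort were not given, its part in the levels of Itgam and Itgax was not tested.

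Itgal, the alpha chain of LFA-1 that binds ICAM proteins, had 9.81 and 9.94 on the WT arrays against 9.69 and 9.66 on the knockout-labelled arrays. The groups did not overlap, but the difference of -0.20 (95% interval -0.39 to -0.01) did not pass (limma, adjusted p = 0.228). Itgad, whose probe set was close to the filter level, had 7.12 and 7.03 on the WT arrays against 6.57 and 6.81 on the knockout-labelled arrays. The difference of its brighter probe set, of 2, was -0.39 (95% interval -0.61 to -0.16; limma, adjusted p = 0.0460). As it was tested only through the WT arrays, both this p and the size of the difference are uncertain. The other Itgad probe set was dim, with 6.19 and 5.94 on the WT arrays against 6.14 and 6.18 on the knockout-labelled arrays, a difference of 0.09. The Itgad call did not hold without WT replicate 1 (adjusted p = 0.275, in a range over its alternatives from 0.0110), without WT replicate 2 (-0.43, adjusted p = 0.117) or without Id2 KO replicate 1 (-0.27, adjusted p = 0.200). With the replicate number as a block its adjusted p was 0.105.

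The beta 2 alpha chains were also set against Itgb2 and against each other within each array. In this comparison the log2 intensity of 1 gene is subtracted from that of another on the same array, so a shift shared by both genes drops out. Itgam minus Itgb2 was -0.27 and -0.34 on the WT arrays against -1.03 and -1.59 on the knockout-labelled arrays. The shift between the group means was -1.01, and the 4 shifts between single arrays ran from -1.33 to -0.68. Itgax minus Itgb2 was 1.81 and 1.73 on the WT arrays against 1.72 and 1.77 on the knockout-labelled arrays, a shift of -0.02 with overlap between the groups. Itgal minus Itgb2 shifted by -0.21 and Itgad minus Itgb2 by -0.39, both without overlap. Set directly against its neighbours in the family, Itgam shifted by -0.98 against Itgax, by -0.80 against Itgal and by -0.61 against Itgad. With 2 arrays against 2 an exact two-sided permutation test cannot give a p under 0.333, so none of the 14 pairs compared in this way could pass. The pairs share genes and are not separate observations.

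Itgam, Itgax and Itgad are neighbours on one chromosome, with no other protein-coding gene between them in the RefSeq annotation of GRCm38.p6, and their differences were -0.998, -0.01 and -0.39 in that order. The 250 bases before the annotated gene start are shown for Itgam and Itgb1, the chains whose calls were not tied to the dim range, and for Itgax as the neighbour of Itgam with overlapping groups. The sequences are from RefSeq (GRCm38.p6), 5′ to 3′ on the gene's strand. Capitals mark CANNTG, the E box that E proteins can bind, which reads the same on both strands, and GAGGAA or its reverse complement TTCCTC, a core of sites for the myeloid factor PU.1.
Itgam, chr7:128062390-128062639, plus strand: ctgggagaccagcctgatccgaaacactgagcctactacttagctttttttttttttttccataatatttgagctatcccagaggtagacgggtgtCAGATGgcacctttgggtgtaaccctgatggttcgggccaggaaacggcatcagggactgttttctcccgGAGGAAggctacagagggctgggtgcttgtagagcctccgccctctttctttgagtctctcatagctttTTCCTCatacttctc
Itgax, chr7:128129300-128129549, plus strand: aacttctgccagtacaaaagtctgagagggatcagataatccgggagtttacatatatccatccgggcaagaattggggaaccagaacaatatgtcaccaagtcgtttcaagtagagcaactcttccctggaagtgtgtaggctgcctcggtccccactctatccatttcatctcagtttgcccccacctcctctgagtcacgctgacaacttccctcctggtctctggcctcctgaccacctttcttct
Itgb1, chr8:128685404-128685653, plus strand: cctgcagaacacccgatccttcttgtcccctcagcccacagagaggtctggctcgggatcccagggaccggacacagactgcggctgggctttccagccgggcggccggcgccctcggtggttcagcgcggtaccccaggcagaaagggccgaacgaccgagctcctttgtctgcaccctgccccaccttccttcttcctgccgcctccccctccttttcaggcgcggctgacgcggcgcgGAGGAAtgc
The Itgam window held 1 CANNTG, reading CAGATG and starting 154 bases before the gene start, and 2 matches to GAGGAA on either strand, at 84 and 15 bases. The Itgax window held neither motif, and that of Itgb1 held 1 GAGGAA at 9 bases and no CANNTG. Promoters of 5 of the 10 chains were in the table, and those of Itga4 and Itgb7 held 1 CANNTG each. Of all 32851 promoter windows of this length, 66.2% held CANNTG and 23.3% held GAGGAA on either strand. The RUNX core TGTGGT or its reverse complement was found in the Itga4 window and in 14.0% of all windows. These matches describe the letters of the windows only, and no binding was measured.

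Among the beta 1 integrins, the beta chain rose, Itga4 did not pass and Itga6 was too dim to be tested. Itgb1 had log2 intensities of 8.62 and 8.81 on the WT arrays against 9.25 and 9.26 on the knockout-labelled arrays. Both knockout-labelled arrays lay above both WT arrays. The means were 8.72 ± 0.14 and 9.25 ± 0.01 (SD, n = 2 each), which is 1.45-fold higher. The difference was 0.53 with a 95% interval of 0.33 to 0.74 (limma, adjusted p = 0.00685). Without WT replicate 1 it was 0.44 and did not pass (adjusted p = 0.0718, in a range over its alternatives from 0.00272).

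Itga4, the alpha chain that both Itgb1 and Itgb7 use, had 12.67 and 12.75 on the WT arrays against 12.73 and 12.83 on the knockout-labelled arrays. The groups overlapped and the difference was 0.07 with an interval of -0.12 to 0.26 (limma, adjusted p = 0.717). Itga6, a laminin receptor chain, had 6.08 and 6.01 in the WT arrays and 6.09 in both knockout-labelled arrays, all below the filter level, and was not tested. Within arrays, Itga4 minus Itgb1 was 4.05 and 3.93 on the WT arrays against 3.48 and 3.57 on the knockout-labelled arrays, a shift of -0.47. The groups did not overlap, but the exact permutation test could not pass, as above.

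Among the beta 7 integrins no chain passed. Itgb7 had 8.77 and 8.92 on the WT arrays against 8.82 and 8.46 on the knockout-labelled arrays. Id2 KO replicate 2 was the lowest of the 4 arrays, while Id2 KO replicate 1 lay between the WT arrays. The difference was -0.21 with an interval of -0.48 to 0.07 (limma, adjusted p = 0.394). It was -0.38 without Id2 KO replicate 1 and -0.03 without Id2 KO replicate 2, and passed in neither case. Itgae, which many cDC1 carry, had 6.86 and 6.75 on the WT arrays against 7.02 and 6.70 on the knockout-labelled arrays. The knockout-labelled arrays gave both its highest and its lowest value, and the difference was 0.06 with an interval of -0.20 to 0.31 (limma, adjusted p = 0.828). Its level was close to the filter level in every array. Itga4 minus Itgb7 shifted by 0.27, with single shifts from 0.0086 to 0.54, so its groups barely missed overlapping. Itgae minus Itgb7 also shifted by 0.27, with single shifts from 0.12 to 0.41. Both shifts contain the Itgb7 difference of -0.21, which did not pass.

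The 3 beta chains were compared with each other in the same way. Itgb1 minus Itgb2 was -2.41 and -2.31 on the WT arrays against -1.84 and -1.83 on the knockout-labelled arrays, a shift of 0.53 with single shifts from 0.46 to 0.59. Itgb1 minus Itgb7 was -0.15 and -0.11 on the WT arrays against 0.43 and 0.80 on the knockout-labelled arrays, a shift of 0.74. Itgb2 minus Itgb7 shifted by 0.22, with single shifts from 0.01 to 0.42. The order of the differences between groups was therefore Itgb1, Itgb2 and Itgb7 from highest to lowest, and the intervals of Itgb2 and Itgb7 overlapped. Each of these pairs had an exact permutation p of 0.333.

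**Figure D2:**
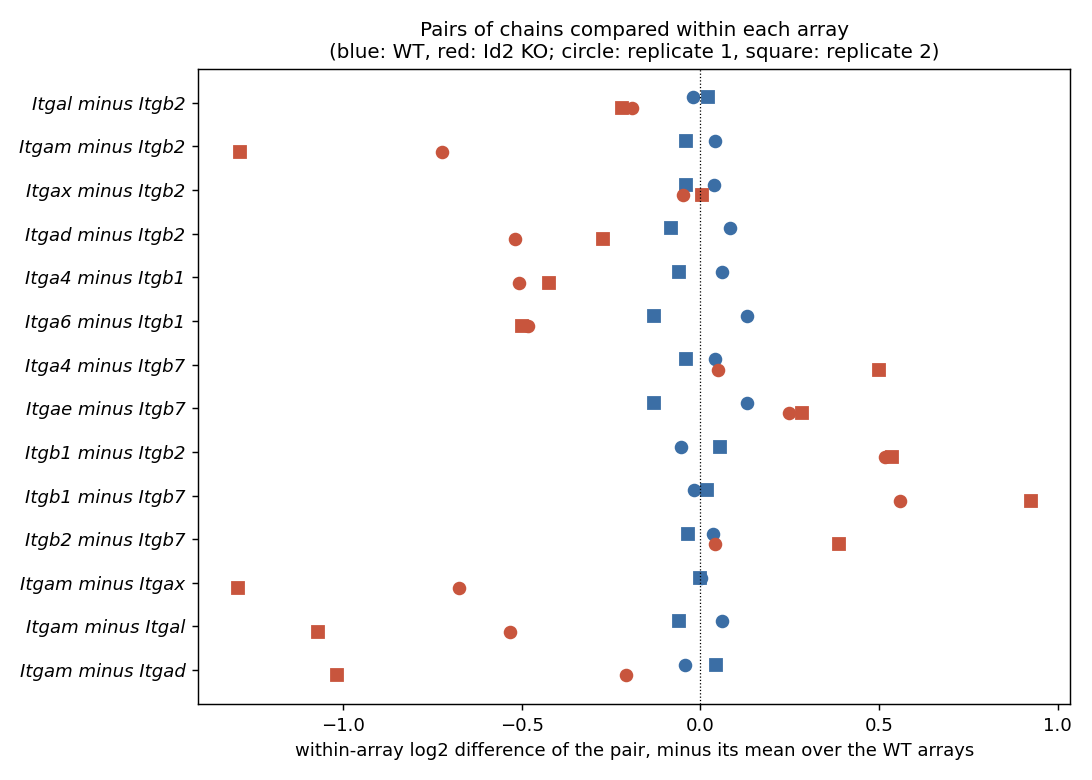
Log2 difference of each pair of chains within an array, minus its mean over the WT arrays (horizontal axis), for the 4 arrays and the 14 pairs. Itgam shifted by -1.01 and Itgb1 by 0.53 against Itgb2, and Itgax minus Itgb2 is the pair whose groups overlap. The pairs share genes, and with 2 arrays per group none could pass the exact permutation test.

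Of the 16 other integrin chains, 9 were tested, and 1 rose, 1 fell and 7 did not pass (limma). Their median difference was -0.07. Among all tested genes 5.53% rose and 2.52% fell, and counts this small do not set these chains apart. Itga5, which forms the fibronectin receptor with Itgb1, had 7.75 and 7.88 on the WT arrays against 8.27 and 8.21 on the knockout-labelled arrays. It rose by 0.42 (95% interval 0.23 to 0.61; limma, adjusted p = 0.0163). Its call was lost without WT replicate 1 (adjusted p = 0.152, in a range over its alternatives from 0.00705), without Id2 KO replicate 1 (adjusted p = 0.0564) and with the replicate block (adjusted p = 0.0524). Itga9, a further partner of Itgb1 that binds tenascin-C and VCAM-1, had 7.31 and 7.42 on the WT arrays against 6.94 and 6.97 on the knockout-labelled arrays. It fell by 0.41 (limma, adjusted p = 0.0161), and its call was lost without WT replicate 1, without WT replicate 2 and without Id2 KO replicate 1 (adjusted p = 0.0573, 0.117 and 0.0517, in a range from 0.00966). The alpha chains that pair with Itgb1, 12 in all and 7 tested, held 1 higher and 1 lower gene, with a median of -0.06. These counts are likewise too small to set them apart. Itgb3, the beta chain of the vitronectin receptor, differed by 0.35 without passing (adjusted p = 0.0694), and its partner Itgav by 0.09 (adjusted p = 0.616).

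**Figure D3:**
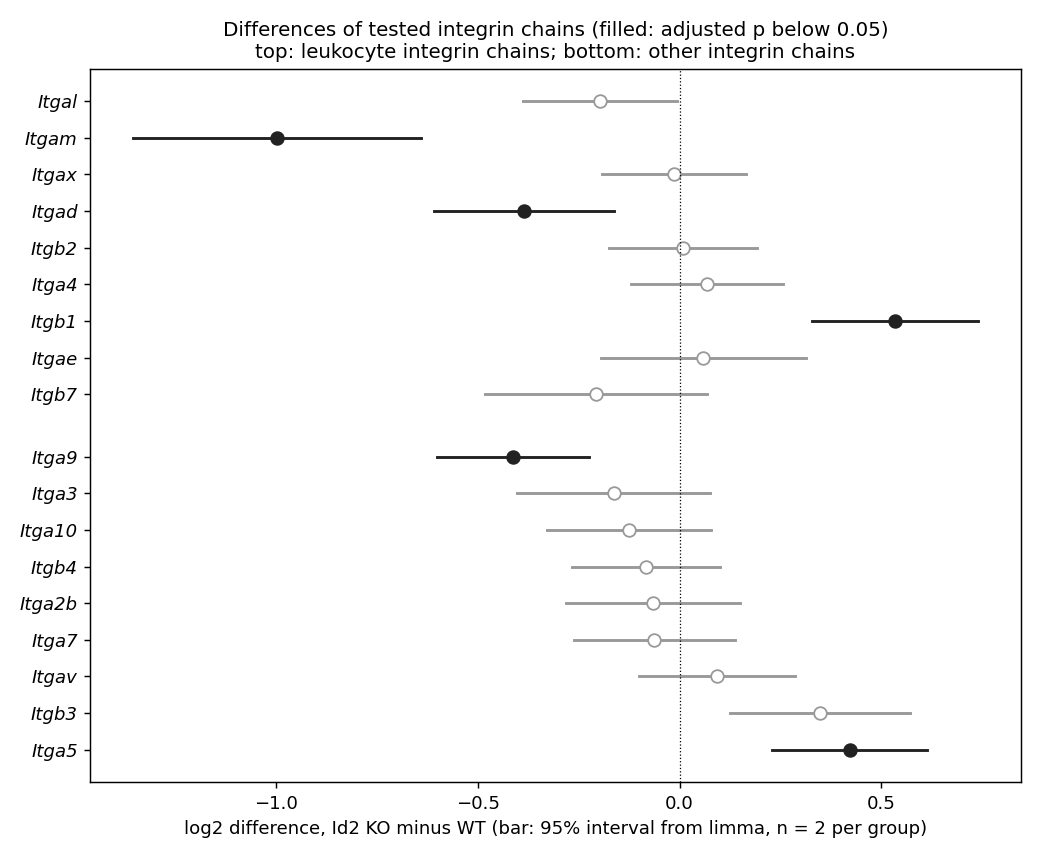
Log2 difference, Id2 KO minus WT (horizontal axis), with 95% intervals from limma, for the 9 tested leukocyte integrin chains and the 9 other tested chains. Filled points have an adjusted p below 0.05: Itgam (-0.998), Itgad (-0.39, tested only through WT) and Itga9 (-0.41) below 0, and Itgb1 (0.53) and Itga5 (0.42) above it.

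Of 8 tested genes for integrin ligands, 1 rose, 2 fell and 5 did not pass, with a median of -0.15 (limma). Over all tested genes, 5.53% rose and 2.52% fell. Icam1, the ligand of LFA-1 and Mac-1, had 10.27 and 10.45 on the WT arrays against 10.67 and 10.86 on the knockout-labelled arrays, and rose by 0.41 (adjusted p = 0.0399). This call was lost without WT replicate 1 (adjusted p = 0.292, in a range from 0.0222), without WT replicate 2, without Id2 KO replicate 2, without a filter and with arrays quantile-normalized again. Vcam1, a ligand of Itga4 with Itgb1, fell by 0.48 (adjusted p = 0.0128), a call that was lost without WT replicate 2 (adjusted p = 0.0984, in a range from 0.00376). Fn1, which encodes fibronectin, fell by 0.67 (adjusted p = 0.00269), and this call held with each array left out. Vcam1 is also in the red pulp macrophage list and Fn1 in the monocyte list. Icam2 at -0.26 (adjusted p = 0.117) did not pass.

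Genes that regulate integrin activation, as activators or, like Flna, Sharpin, Itgb1bp1 and Dok1, as inhibitors, held 2 higher and 0 lower among 19 tested, with a median of 0.11 (limma). Over all tested genes 5.53% were higher and 2.52% lower, so a count of 2 does not set this list apart. An unadjusted p below 0.05 was found for 4 of the 19, and for 20.7% of all tested genes. Rasgrp2, the exchange factor that loads RAP1, rose by 0.36 (adjusted p = 0.0358) and Flna, which binds beta chain tails in competition with talin, rose by 0.44 (adjusted p = 0.0305). The Rasgrp2 call did not hold when any single array was left out, without a filter or with the replicate block, with an adjusted p of 0.281 at most. That of Flna was lost without WT replicate 1 (adjusted p = 0.239, in a range from 0.00568), without Id2 KO replicate 1, without a filter and with the replicate block. Tln1, which encodes talin and activates integrins by binding the beta chain, differed by 0.21 (95% interval -0.02 to 0.43; adjusted p = 0.291), with 0.08 without WT replicate 1 and 0.34 without WT replicate 2. Fermt3, the kindlin of blood cells, differed by -0.06 (interval -0.26 to 0.14; adjusted p = 0.776). Of 17 tested genes of integrin signalling and linkage to actin, 0 passed in either direction and 0 had an unadjusted p below 0.05 (limma). Their differences ran from -0.15 to 0.17. Over all tested genes the matching shares were 8.04% and 20.7%. The 17 genes include Fgr, Syk, Ilk, Pxn and Vcl.

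Markers of other cells moved in the same arrays. Itgam is carried by neutrophils, monocytes and macrophages as well as by cDC2. Over all tested genes 2.52% fell. Of 15 tested neutrophil markers, Ngp, Ltf, Camp, Lcn2, S100a8, S100a9, Mmp9, Retnlg, Elane and Fcnb had means above the filter level in both groups. Each of these fell. The summed intensity of the 17 measured neutrophil markers was 19200 and 19963 on the WT arrays against 2061 and 2971 on the knockout-labelled arrays. Mmp8, Chil3, Cxcr2, Mpo and Prtn3 had knockout-labelled means of 5.49, 6.45, 6.52, 6.52 and 6.59, under the filter level. They were also called lower, but they were tested only through WT, so their calls support no count, as for Itgad. Red pulp macrophages are known to carry Itgad. Of 9 tested macrophage markers Vcam1, C1qa, C1qb, C1qc, Adgre1 and Axl fell. The sum of the 11 measured was 3615 and 4108 on the WT arrays against 2628 and 2673 on the knockout-labelled arrays. Slc40a1 was called lower too, but it had a knockout-labelled mean of 6.19 and was likewise tested only through WT. Of 8 tested monocyte markers 3 fell and 5 did not pass, with differences from -0.88 to 0.09. The sum of the 10 measured went from 13438 and 14609 to 12535 and 12225. Such a sum is weighted towards its brightest probe sets. Here the brightest was Nr4a1, which did not pass, with 13.10 and 13.24 on the WT arrays against 13.05 and 13.02 on the knockout-labelled arrays. No marker was listed at 0, since the lowest deposited intensity is 5.19 on any array. The part of these cells in the lower values of Itgam and Itgad was not tested.

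Itgb1 is expressed by many cell types. Over all tested genes 5.53% rose. Of 9 tested B cell markers Ms4a1, Cd79a, Cd79b, Pax5, Fcmr and Blk rose. The sum of the 10 measured B cell markers was 1470 and 1446 on the WT arrays against 2766 and 3212 on the knockout-labelled arrays. Cr2 and Fcer2a were also called higher. They had WT means of 6.26 and 6.73, under the filter level, and were tested only through the knockout-labelled arrays. Of 11 tested cell cycle genes Mki67, Top2a, Ccna2, Kif11, Plk1, Foxm1, Rrm2, Tyms, Mcm7 and Nusap1 rose. The sum of the 11 went from 3931 and 4114 to 12180 and 9683. Prc1, called higher with a WT mean of 6.39, was also tested only through the knockout-labelled arrays. The calls of Cr2, Fcer2a and Prc1 support no count, as for Itgad. Of 9 tested plasmacytoid dendritic cell markers 4 rose, with sums of 3046 and 3039 in WT and 3617 and 3684 in the other group. The part of these in the higher Itgb1 was not tested. Of 7 tested cDC1 markers, which include Itgae, 2 fell, and the sums were 3817 and 4028 in WT and 3553 and 3617 in the other group. The cDC1 markers Xcr1, Clec9a and Cadm1 were too dim to be tested, and these sums are weighted towards Batf3, which did not pass. Of 6 tested T cell markers 1 fell, as did 1 of 3 NK cell markers and 1 of 5 platelet and erythroid markers. Over all tested genes 2.52% fell, and single genes of such short lists do not describe a cell type. The NK cell gene was Klrd1, and 5 of the 8 NK cell markers were too dim to be tested. Among the 12 tested cDC2-defining genes Itgam, Zbtb46 and Cd4 fell and Esam rose. The Zbtb46 call carries the limit given for Itgad, since Zbtb46 was tested only through WT.

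**Figure D4:**
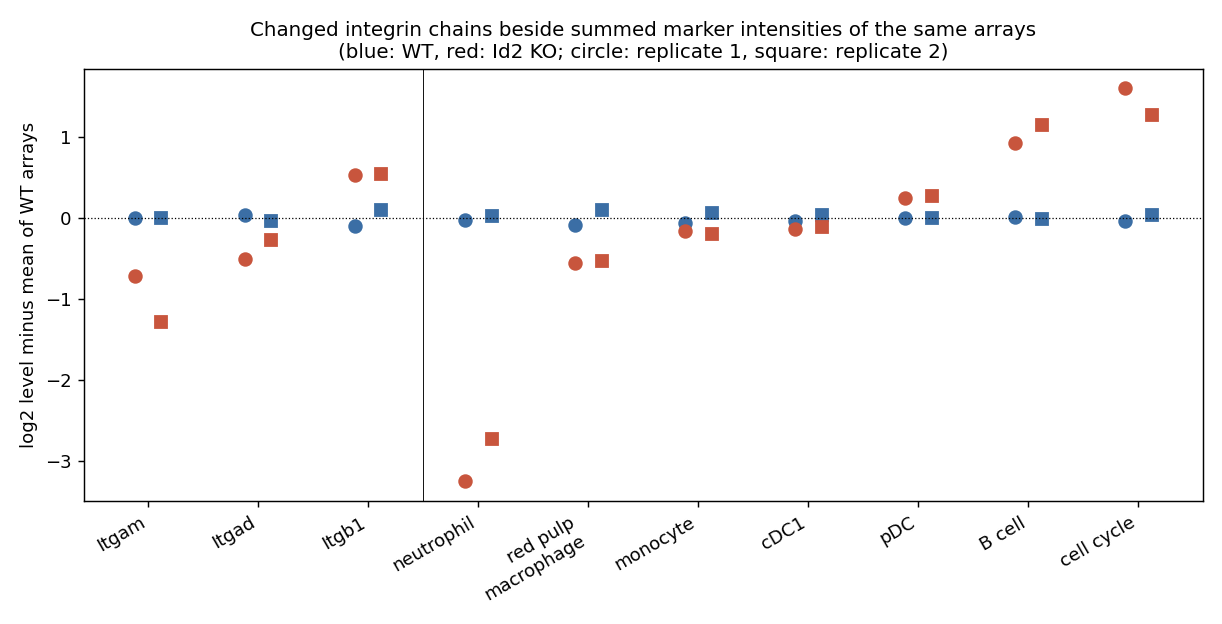
Log2 intensity of Itgam, Itgad and Itgb1 and log2 of the summed marker intensity of 7 lists (vertical axis, minus the mean of the WT arrays), by array. The neutrophil sums in the knockout-labelled arrays (2061 and 2971) are below those of WT (19200 and 19963), and the cell cycle sums (12180 and 9683) are above them (3931 and 4114).

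The genes whose values over the 4 arrays were most like those of a chain with an adjusted p below 0.05 were named by the smallest root mean square distance after each gene was centred on its own mean, out of 11171 protein-coding genes. For Itgam they were Slc6a12, a transporter gene (distance 0.09 on the log2 scale), the amino acid transporter gene Slc43a1 (0.12) and the lectin-like receptor gene Klrb1f (0.13). Slc6a12 had 10.01 and 10.12 on the WT arrays against 9.35 and 8.96 on the knockout-labelled arrays. For Itgad they were Neurl3, Klrd1 and Cd209a, at distances from 0.02 to 0.03, of which Klrd1 passed the test (-0.40, limma, adjusted p = 0.0440). For Itgb1 they were Poglut1 (0.0081), Manea (0.01) and Mxd3 (0.02), which rose by 0.52, 0.55 and 0.55. A likeness over 4 arrays rests on few values and is given as a description.

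**Figure D5:**
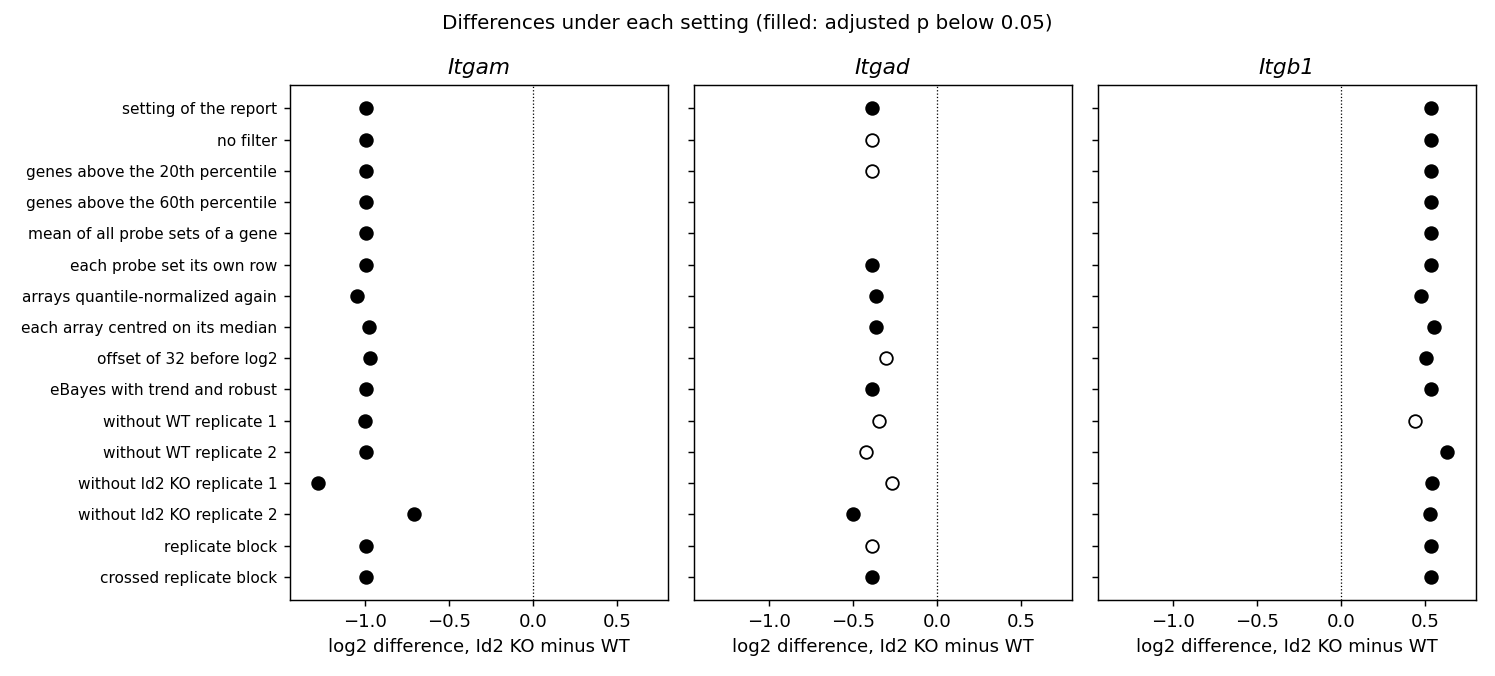
Log2 difference, Id2 KO minus WT (horizontal axis), of Itgam, Itgad and Itgb1 under each processing setting (rows); filled points have an adjusted p below 0.05. Itgam is filled in every row and runs from -1.29 to -0.71, Itgb1 is open without WT replicate 1 (0.44), and Itgad is open in 7 rows and has no value in the 2 rows where it was not tested.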

How the data were processed

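Per the submitters' processing notes, the authors used Affymetrix Expression Console and RMA, named without version or order. The deposited values are 1 linear intensity per probe set and array; a step back from log2 is not recorded. Per the labels' protocols, cDNA was amplified with a NuGen Ovation PicoSL kit, which can compress levels, and scaling arrays to each other removes changes in total RNA. Of 28853 probe sets, 21789 had 1 gene symbol, 1621 several and 5443 none; the brightest single-symbol set stood for a gene. Log2 intensities were fitted by lmFit and eBayes of limma 3.58.1 (R 4.3.3; 2 residual degrees of freedom per gene), adjusted by Benjamini-Hochberg over all 11963 tested genes; intervals are unadjusted. Precision is limited by the number of arrays. Members, lists, the rule for named genes (all members; list genes past the threshold; Tln1, Fermt3, Icam1 and Vcam1; the 3 most similar genes) and alternatives were chosen with earlier results of these data known.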

Additional observations from a re-analysis of the deposited data

How the results depend on the processing

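Itgam kept its direction and its call under all 15 alternatives, from -1.29 to -0.71, and Itgb1 from 0.44 to 0.63, with its call lost without WT replicate 1. Itgad stayed lower in all 13 alternatives that tested it and lost its call in 7, among them no filter (-0.39), genes above the 20th percentile (-0.39), an offset of 32 (-0.30) and the replicate block (-0.39), with -0.50 to -0.27 when 1 array was left out. It lay under the 60th percentile, and under the filter as a mean of its probe sets, so fewer chains were tested there. The number of lower chains, 2 with Itgad counted, was therefore 1 with no filter, above the 20th and 60th percentiles, with mean probe sets, with the offset and with the replicate block, and 1 to 2 with an array left out. The number of higher chains was 0 to 1 with an array left out and 1 otherwise. Among the other integrin genes and partners, 4 were higher and 3 lower. The higher were 1 without a filter, 1 with the replicate block and 3 with quantile-normalized arrays. The lower were 4 without a filter, 4 above the 20th percentile and 1 above the 60th percentile. With an array left out the higher were fewer, and the lower were fewer or the same. Differences near 0 changed sign: Itgax was 0.0067 with median-centred arrays, Itgb2 was -0.031 with quantile-normalized arrays, and with 1 array left out Itgax ran from -0.036 to 0.0095, Itgb2 from -0.034 to 0.051, Itgae from -0.10 to 0.22 and Fermt3 from -0.14 to 0.026. Apart from fewer genes or arrays, the cause was not tested. Over all genes, 661 were higher and 301 lower, against 304 and 155 without WT replicate 1 and 485 and 142 without WT replicate 2. The labels do not say whether same-numbered arrays were prepared together. Deviations of same-numbered arrays correlated at -0.14 over tested genes, which cannot settle this with 2 arrays per group. The replicate block gave 479 higher and 205 lower. A crossed pairing, chosen after seeing the data, gave 932 and 448, and 5 higher among the other integrin genes and partners. No background was measured, so dim values such as those of Itgad, Itgae and Itga6 carry the least certain sizes.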
